A study of Homo sapiens with 6 samples.

Results

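The mitosis and spindle genes are 50 genes that carry a cell from the end of G2 phase through chromosome alignment, sister chromatid separation and cytokinesis. They were listed by name for these roles without a rule on their values, though earlier results of these data were known. They were found in the expression table through the Ensembl identifiers that GENCODE release 29 pairs with their symbols. All 50 were found among the 32364 genes of the table, and all 50 passed the filter on low values that left 18726 genes for testing. Kasumi-1 is an established acute myeloid leukemia (AML) cell line with the t(8;21) translocation, which fuses RUNX1 to RUNX1T1. Messenger RNA was sequenced from 3 libraries of control cells and from 3 libraries of cells incubated with 0.5 µM I13, an inhibitor of histone deacetylases (HDAC), for 48 h. All libraries come from 1 cell line at 1 dose and 1 time. The labels do not say that the replicates came from separate cultures, so the p-values measure the spread between these samples, which may be technical.

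Entry into mitosis is driven by the kinase CDK1 together with A-type and B-type cyclins, and CDC25 phosphatases remove the inhibitory phosphates that WEE1 places on CDK1. The spindle checkpoint then holds the anaphase-promoting complex inactive until every kinetochore is attached to microtubules, after which CDC20 activates the complex and separase cuts cohesin. Most of these genes are transcribed in G2 and M phases, when the MMB complex and FOXM1 occupy promoters that carry a cell cycle genes homology region (CHR), and in quiescent cells the DREAM complex represses them from the same element. For this reason their transcripts are widely read as a sign of how many cells in a culture divide. The study measured cell cycle phases of this line after I13 by flow cytometry, which was not analysed here. The comparison below asks whether the transcripts of the mitotic machinery differed between I13 and control cells. In a bulk sample, fewer dividing cells and less RNA of a gene per cell cannot be told apart.

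Promoter sequences are shown because the members were listed for function and share an element that the choice did not use. RefSeq promoters on GRCh38.p14, from 250 bases before to 50 bases after the transcription start, were matched for 42 of the 50 genes by symbol. FOXM1, AURKA, BIRC5, BUB3, TTK, TPX2, UBE2C and RACGAP1 were not matched. The CHR was searched as TTTGAA or TTCGAA on both strands, so that TTTGAA reads TTCAAA on the other strand. It was held by 35 of the 42 members (83.3%) and by 19.5% of all 27305 genes of the promoter table. The CCAAT box, searched as CCAAT or ATTGG, was held by 33 members (78.6%) and by 39.7% of all genes, and both elements together by 28 members (66.7%) and by 7.85% of all genes. A gene with more than 1 promoter was counted once here, and 8 members had several. By promoter, the CHR was in 70.4% of the 54 member promoters and in 16.4% of all 35116. The members without a CHR match were CCNA2, CCNB1, AURKB, CENPE, KIF2C, KIF20A and PTTG1. The E2F strings TTTCCCGC, TTTGGCGC, TTTCGCGC, TTTGGCGG and TTTCCCGG, searched on both strands and holding no whole CHR or CCAAT string themselves, were found in 5 members (CDK1, CENPA, KIF11, NDC80 and NUSAP1), 11.9% of those matched against 5.76% of all genes. A match describes the letters in this window and is not a mapped binding site.

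The promoters of the 4 most highly expressed members that hold both elements are printed 5′ to 3′ on the gene's strand over the 200 bases before the start (176 bases for TOP2A, without those nearest the start), with the CHR and CCAAT matches in capitals. CKS2 (chr9:89310995-89311194, plus strand) holds 1 CHR, whose first base lies 29 bases before the start, downstream of 3 CCAAT boxes. CDC20 (chr1:43358781-43358980, plus strand) holds a CHR 65 bases before the start between 2 CCAAT boxes and another 178 bases before it. TOP2A (chr17:40417921-40418096, minus strand) holds a CHR 194 and 151 bases before the start. CKS1B (chr1:154974481-154974680, plus strand) holds 1 CHR 30 bases before the start.
CKS2: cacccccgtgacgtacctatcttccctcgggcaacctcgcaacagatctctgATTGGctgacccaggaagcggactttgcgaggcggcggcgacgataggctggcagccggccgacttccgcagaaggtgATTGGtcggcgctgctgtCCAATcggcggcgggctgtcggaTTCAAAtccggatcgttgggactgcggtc
CDC20: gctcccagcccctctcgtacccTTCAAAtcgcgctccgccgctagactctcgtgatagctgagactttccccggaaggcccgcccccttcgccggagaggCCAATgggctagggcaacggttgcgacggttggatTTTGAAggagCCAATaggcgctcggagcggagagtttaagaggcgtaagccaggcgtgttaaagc
TOP2A: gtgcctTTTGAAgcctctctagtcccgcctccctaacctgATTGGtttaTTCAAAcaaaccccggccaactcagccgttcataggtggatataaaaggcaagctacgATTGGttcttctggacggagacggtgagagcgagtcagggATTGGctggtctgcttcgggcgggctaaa
CKS1B: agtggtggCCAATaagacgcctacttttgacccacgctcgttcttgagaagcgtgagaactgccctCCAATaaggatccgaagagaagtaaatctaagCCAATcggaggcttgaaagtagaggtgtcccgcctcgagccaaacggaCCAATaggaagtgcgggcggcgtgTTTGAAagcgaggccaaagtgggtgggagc

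Expression was deposited as FPKM, the fragments of a gene scaled by the length of its exons and by the depth of its library. The recovered depth ran from 16566742 to 17221345 fragments in the 3 control libraries and from 15281052 to 16682550 in the 3 I13 libraries, and each member rested on 124 to 9050 fragments in a library. All 10 markers fixed for Kasumi-1 blasts, among them MPO, KIT, CD34 and RUNX1T1, were above 1 FPKM in every library. Of 15 markers of other cell types 11 were in the table, and 8 of these stayed below 1 FPKM in every library. COL1A1, COL1A2 and ALB were listed at 0 throughout, while EPCAM was between 20.8 and 26.5 FPKM and CD79A between 1.24 and 2.55 FPKM. NKG7 was between 0.269 and 1.18 FPKM. The summed level of these 11 markers, most of it EPCAM, was 23.7 to 29.2 FPKM in control and 25.4 to 28.4 FPKM in I13 libraries. Control replicate 3 and I13 replicate 2 stood apart from the other 4 libraries on the first principal component, which held 43.3% of the variance over 4133 genes of at least 10 FPKM. Results that depend on these libraries are given with and without them.

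The mitotic machinery was expressed at a high level in both groups. The median member was at 18.6 FPKM in control cells, against 2.23 FPKM over all genes tested, and 41 of the 50 had a mean of at least 10 FPKM. CDC25C was the member with the lowest level, 3.45 ± 0.256 FPKM (SD, n = 3) in control cells, at the 57.1 percentile of the genes tested. CKS2 was the highest, 149 ± 6.61 FPKM (SD, n = 3), at the 99.0 percentile. The plot of the level of each member by library shows that the symbols of both groups lie over each other for all 50 genes.

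**Figure D1:**
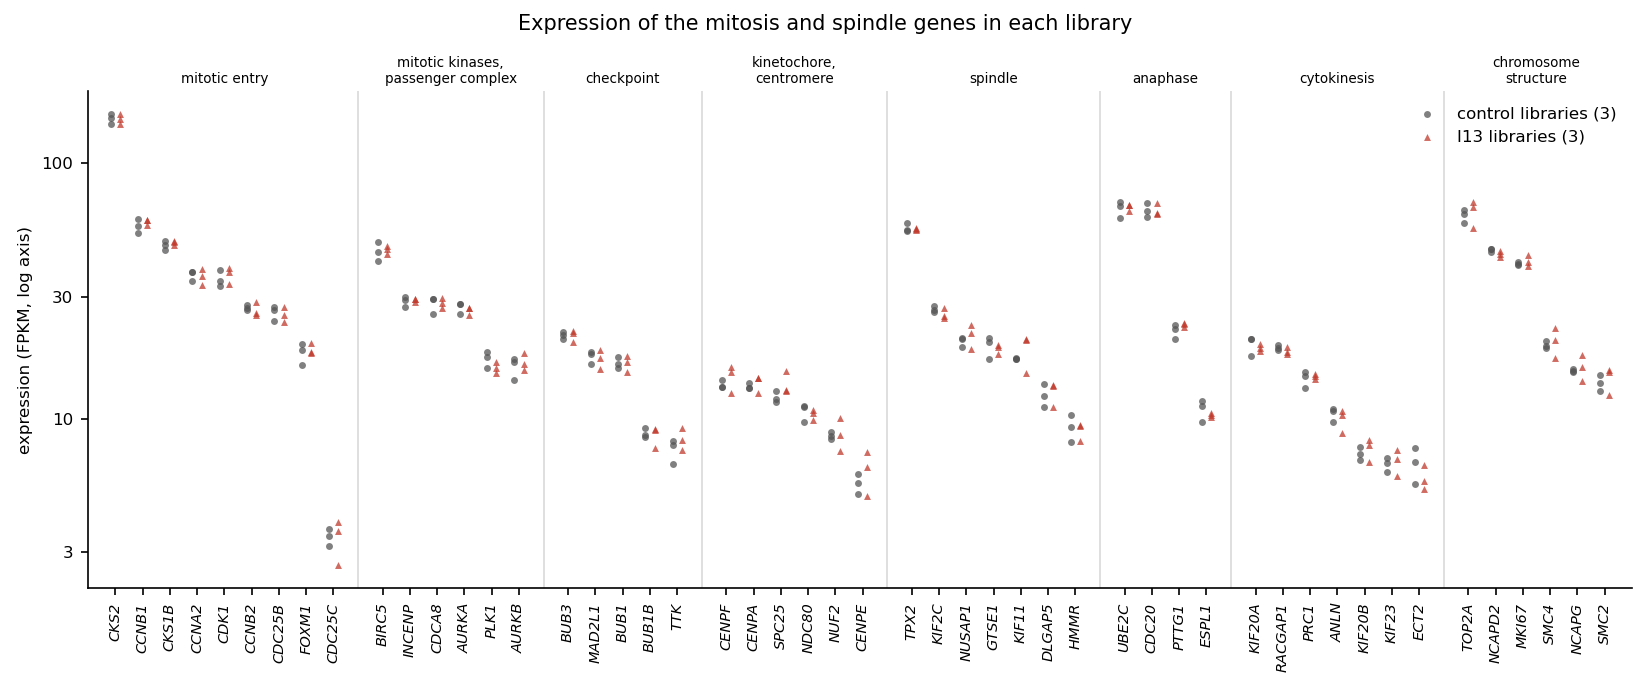
Expression of the 50 mitosis and spindle genes in FPKM on a log axis, with 1 circle per control library and 1 triangle per I13 library (3 each), ordered by function and level. The libraries of both groups overlap for every gene, from CDC25C near 3.45 FPKM to CKS2 near 149 FPKM.

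No member differed between I13 and control cells in the test across all genes. On the log2(FPKM + 0.1) scale 29 members were above 0 and 21 below 0 in I13, and the median log2 fold change was 0.018, against 0.0058 over all genes tested. The share above 0 was 58% of the members and 51.8% of all genes. At an unadjusted p under 0.05 by limma, 0 of 50 members passed, beside 5.14% of all genes tested (963 genes). After Benjamini-Hochberg adjustment and with a log2 fold change of at least 0.58, 0% of the genes tested were called, no member among them. The groups did not overlap for 9.52% of the genes tested and overlapped for all 50 members. When limma's voom was applied to 13812 genes as recovered fragments, 0 members passed the unadjusted threshold, beside 5.35% of the genes, and 0 passed the adjusted one, beside 0.0362% (5 genes). With 3 libraries against 3, an exact permutation test cannot go below 0.1, so the overlap of the groups is given in its place.

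The intervals give the differences that these libraries leave possible. By limma on all libraries, the 95% intervals of all 50 log2 fold changes lay inside the fold threshold of 0.58 in both directions. The lowest limit was that of ECT2 at -0.50, a fold of 0.709, and the highest that of CENPE at 0.51, a fold of 1.42. Limits from voom ran from -0.41 to 0.38. With limits widened so that they hold for all 50 genes together, 38 stayed inside the threshold and 12 did not, with extremes of -0.91 and 0.96. In the 4 libraries without control replicate 3 and I13 replicate 2, limma limits reached -0.64 for CDC25C and 0.65 for CENPE, outside the threshold. The point estimates from all libraries were small, since 44 of the 50 were within 0.1 of 0. The summed level of the members was 1263, 1340 and 1320 FPKM in control replicates 1, 2 and 3 and 1332, 1279 and 1345 FPKM in the I13 replicates. These sums gave 1307 ± 40.0 FPKM in control and 1319 ± 34.8 FPKM in I13 cells (SD, n = 3 each), and the groups overlapped.

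**Figure D2:**
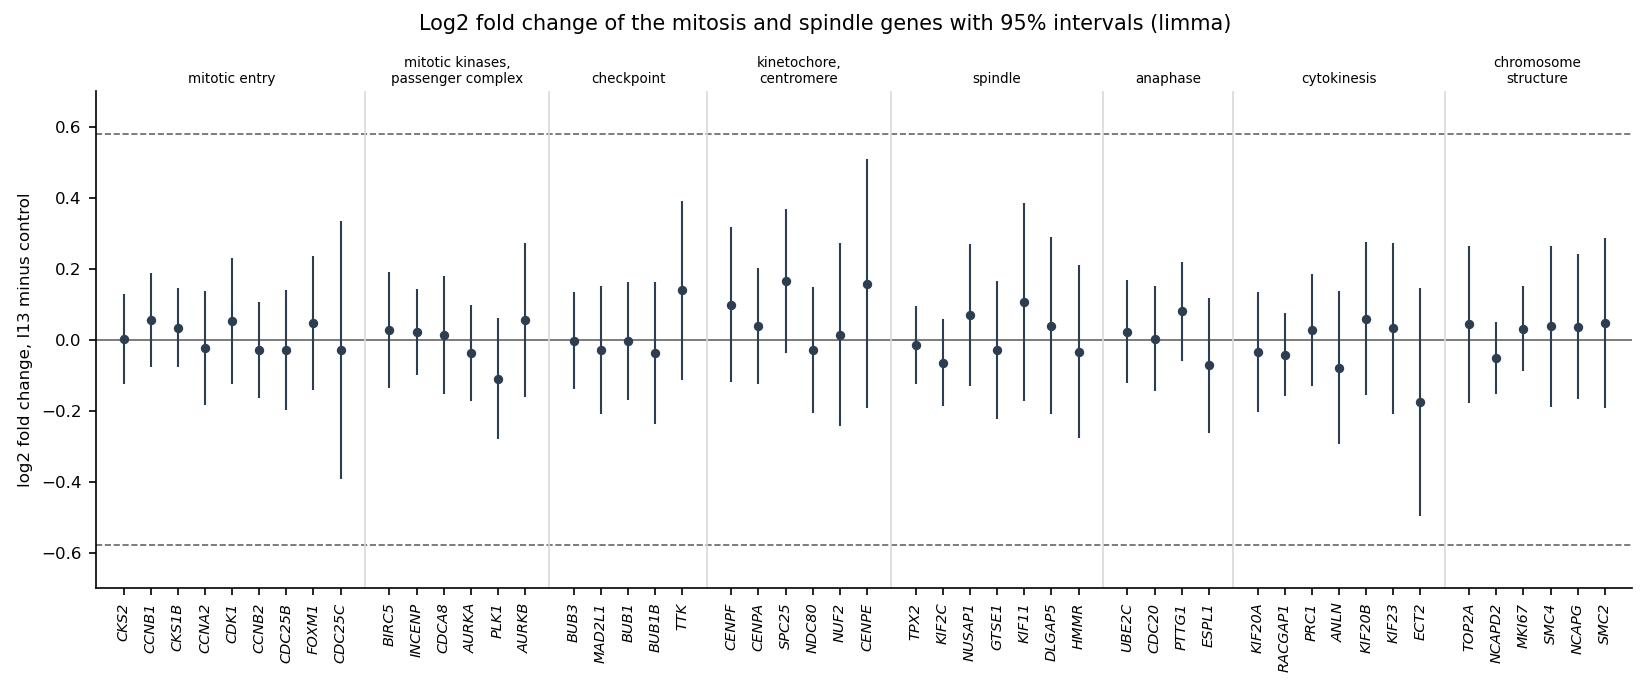
Log2 fold change of I13 against control for each member (points) with its 95% interval from limma (bars, 3 libraries a group). All 50 intervals lie between the dashed lines at a log2 fold change of 0.58 in either direction, with the lowest limit at -0.50 for ECT2 and the highest at 0.51 for CENPE.

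Among the 9 genes of mitotic entry, 5 were above and 4 below 0, the median was 0.0026 on the log2 scale, and 0 passed the unadjusted threshold. CCNB1, the B-type cyclin that activates CDK1 at the start of mitosis, had the smallest p of the group. It was at 53.6, 57.0 and 60.5 FPKM in the control replicates and at 57.3, 60.0 and 60.3 FPKM in the I13 replicates. Control replicate 1 was the lowest and control replicate 3 the highest of the 6, so the groups overlapped, with a log2 fold change of 0.06 (SE 0.0563, adjusted p = 0.993). CKS2, a small subunit bound to the cyclin-dependent kinases, was at 142, 156 and 150.2 FPKM in control and at 156, 143 and 149.8 FPKM in I13 libraries. Its means differed by less than the spread in either group. CDC25C, a phosphatase that activates CDK1, was at 3.18, 3.69 and 3.49 FPKM in control and at 3.65, 3.95 and 2.66 FPKM in I13 libraries. I13 replicates 2 and 3 were the highest and the lowest of all 6, and its standard error of 0.155 was the largest of any member. CDK1 itself (chr10:60778331-60794852 on GRCh38), chosen after its values were seen, was at 35.3 ± 2.62 FPKM in control and 36.7 ± 2.62 FPKM in I13 cells (SD, n = 3 each). FOXM1, the transcription factor of the G2 and M genes, also chosen in this way, was at 18.2 ± 1.73 and 18.8 ± 0.909 FPKM.

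The 6 mitotic kinases and chromosomal passenger proteins held 4 genes above and 2 below 0, with a median of 0.018. PLK1, a kinase of centrosome maturation and mitotic exit, had the smallest p of the group. Its values were 15.7, 18.3 and 17.4 FPKM in control and 15.1, 16.7 and 15.8 FPKM in I13 libraries. I13 replicates 2 and 3 were higher than control replicate 1, so the groups overlapped, and the log2 fold change was -0.11 (SE 0.0726, adjusted p = 0.983). AURKB, the kinase of the passenger complex that corrects faulty attachments, was at 14.2, 17.2 and 16.7 FPKM in control and at 16.3, 18.1 and 15.5 FPKM in I13 libraries. BIRC5, or survivin, which brings that complex to centromeres, was at 41.5, 44.8 and 49.2 FPKM in control and at 44.1, 47.5 and 46.4 FPKM in I13 libraries. For both genes control replicate 1 was the lowest of the 6. AURKA, INCENP and CDCA8 had log2 fold changes of -0.04, 0.02 and 0.01.

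Of the 5 spindle checkpoint genes 1 was above and 4 were below 0, with a median of -0.0037. TTK, also known as MPS1, is the kinase that starts checkpoint signalling at unattached kinetochores, and it was both the lowest in level and the one with the smallest p. It was at 7.86, 8.17 and 6.64 FPKM in control and at 8.23, 7.55 and 9.22 FPKM in I13 libraries. Control replicate 3 was the lowest and I13 replicate 3 the highest of the 6, with a log2 fold change of 0.14 (SE 0.107, adjusted p = 0.983). BUB3, which docks the BUB kinases at kinetochores, was at 20.5, 21.8 and 21.2 FPKM in control and at 22.1, 19.9 and 21.6 FPKM in I13 libraries. The I13 values enclosed those of the controls. BUB1, BUB1B and MAD2L1 were all within 0.1 of 0 in log2 fold change.

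The kinetochore and centromere genes were the group with the highest median log2 fold change of the 8, 0.069, with 5 of 6 above 0. The median of these genes was 0.15 without control replicate 3 and I13 replicate 2 and -0.15 between those libraries, so its sign depended on them. SPC25, a subunit of the NDC80 complex that binds microtubules, had the smallest p of all members. The gene lies at chr2:168834132-168913371 on GRCh38. It was at 12.9, 11.997 and 11.7 FPKM in control and at 15.4, 12.8 and 12.97 FPKM in I13 libraries. I13 replicate 1 was high and I13 replicate 2 lay just under control replicate 1. The log2 fold change was 0.17 (SE 0.0858, 95% interval -0.04 to 0.37), with an unadjusted p of 0.0946 and an adjusted p of 0.962 by limma. CENPE, a motor that carries chromosomes to the spindle equator, was at 5.08, 6.06 and 5.59 FPKM in control and at 6.48, 4.99 and 7.44 FPKM in I13 libraries. CENPF, a large protein of the outer kinetochore, was at 13.3, 13.3 and 14.2 FPKM in control and at 15.3, 12.7 and 16.0 FPKM in I13 libraries. For CENPE and CENPF I13 replicates 1 and 3 were the highest of the 6 and I13 replicate 2 the lowest. The log2 fold changes were 0.16 (SE 0.149) for CENPE and 0.10 (SE 0.0924) for CENPF.

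The 7 genes of spindle microtubules and motors had a median of -0.015, with 3 above and 4 below 0. KIF2C, or MCAK, a kinesin that takes apart microtubule ends, had the smallest p of the group. It was at 26.3, 26.7 and 27.6 FPKM in control and at 25.2, 24.8 and 27.0 FPKM in I13 libraries. I13 replicate 3 was above control replicates 1 and 2, so the groups overlapped, and the log2 fold change was -0.06 (SE 0.0524, adjusted p = 0.983). TPX2, which activates AURKA on the spindle, was at 54.1, 58.6 and 54.9 FPKM in control and at 55.4, 54.9 and 55.6 FPKM in I13 libraries. HMMR, a spindle protein that binds microtubules, was at 9.28, 10.3 and 8.10 FPKM in control and at 9.43, 8.19 and 9.34 FPKM in I13 libraries. For both genes the I13 values lay within the range of the controls. KIF11, or Eg5, the motor that pushes the spindle poles apart, was chosen after its values were seen. It was at 17.1, 17.2 and 17.2 FPKM in control and at 20.4, 15.1 and 20.5 FPKM in I13 libraries. The controls lay close together and I13 replicate 2 was on the opposite side of them from I13 replicates 1 and 3.

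Of the 4 anaphase genes 3 were above and 1 was below 0, with a median of 0.013. UBE2C, the ubiquitin-conjugating enzyme of the anaphase-promoting complex, was at 61.4, 68.1 and 70.6 FPKM in control and at 65.4, 69.0 and 68.5 FPKM in I13 libraries. PTTG1, or securin, which blocks separase until anaphase, was at 20.5, 23.3 and 22.5 FPKM in control and at 23.6, 22.8 and 23.6 FPKM in I13 libraries. ESPL1, or separase, was at 9.69, 11.3 and 11.7 FPKM in control and at 10.1, 10.3 and 10.5 FPKM in I13 libraries. For these genes control replicate 1 was the lowest of the 6 libraries and the groups overlapped. The log2 fold changes were 0.08 (SE 0.0597) for PTTG1 and -0.07 (SE 0.0807) for ESPL1.

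The 7 cytokinesis genes had a median of -0.035, with 3 above and 4 below 0. ECT2, the exchange factor that activates RHOA at the division plane, lies at chr3:172750682-172821474 on GRCh38 and had the lowest log2 fold change of the members. It was at 7.68, 6.79 and 5.53 FPKM in control and at 5.71, 5.30 and 6.58 FPKM in I13 libraries. Control replicates 1 and 2 were the highest, but control replicate 3 was below I13 replicates 1 and 3. The log2 fold change was -0.18 (SE 0.136, 95% interval -0.50 to 0.15), with an unadjusted p of 0.237 and an adjusted p of 0.983 by limma. KIF20A, a kinesin of the central spindle, was at 17.7, 20.5 and 20.5 FPKM in control and at 18.9, 19.7 and 18.5 FPKM in I13 libraries. Its I13 values lay inside the range of the controls. RACGAP1 and KIF23, the partners of the centralspindlin complex that recruits ECT2, had log2 fold changes of -0.04 and 0.03.

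Of the 6 genes of chromosome structure 5 were above and 1 was below 0, with a median of 0.037. TOP2A, the topoisomerase that untangles sister chromatids, was at 63.2, 65.8 and 58.4 FPKM in control and at 67.3, 55.9 and 70.6 FPKM in I13 libraries. SMC2, the core subunit of both condensins, was at 14.9, 13.9 and 12.9 FPKM in control and at 15.2, 12.4 and 15.6 FPKM in I13 libraries. For TOP2A and SMC2 control replicate 3 and I13 replicate 2 were the lowest of their groups. NCAPD2, a subunit of condensin I, had the smallest p of the group and a log2 fold change of the opposite sign. It was at 46.3, 44.9 and 46.1 FPKM in control and at 43.1, 45.4 and 44.0 FPKM in I13 libraries, a log2 fold change of -0.05 (SE 0.0428, adjusted p = 0.983). MKI67, which codes for the Ki-67 antigen used to mark dividing cells and was chosen after its values were seen, was at 40.5 ± 0.586 FPKM in control and 41.4 ± 2.09 FPKM in I13 cells (SD, n = 3 each).

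Ratios between genes within a library do not depend on how the library was scaled. Of 18 ratios between subunits, partners or related genes, 17 overlapped between the groups. CCNB2 to CCNB1 was 0.479 ± 0.0398 in control and 0.452 ± 0.0410 in I13 cells, and CKS2 to CKS1B was 3.13 ± 0.224 and 3.06 ± 0.150 (SD, n = 3 each). Within the NDC80 complex, NUF2 to NDC80 was 0.809 ± 0.0703 and 0.835 ± 0.0904, and SPC25 to NDC80 was 1.15 ± 0.0654 and 1.32 ± 0.133. Within condensin, SMC4 to SMC2 was 1.41 ± 0.0967 and 1.40 ± 0.0620. The ratio that did not overlap was PTTG1 to ESPL1, securin to separase. It was 2.12, 2.07 and 1.92 in the control replicates and 2.33, 2.21 and 2.24 in the I13 replicates. The means were 2.03 ± 0.103 and 2.26 ± 0.0596, and the smallest p that an exact permutation test allows here is 0.1. Among single genes tested, the groups did not overlap for 9.52%, a share that was not computed over ratios of other genes.

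The members also varied between the libraries within each group. I13 replicate 2 was the lowest of the 6 libraries for 23 members and the lowest I13 library for 31. Control replicate 1 was the lowest of the 6 for 15 members. Relative to the other libraries of their groups, control replicate 3 and I13 replicate 2 were lower for 32 members and higher for 18. The median log2 difference was -0.057 for the members and -0.033 over 11517 genes of at least 1 FPKM, so a lower level was not limited to the members. ECT2 was lowest in this library pair, at -0.29 on the log2 scale, followed by TTK at -0.24 and SMC2 at -0.23. CDC25C was highest at 0.18, followed by FOXM1 at 0.15 and AURKB at 0.14.

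**Figure D3:**
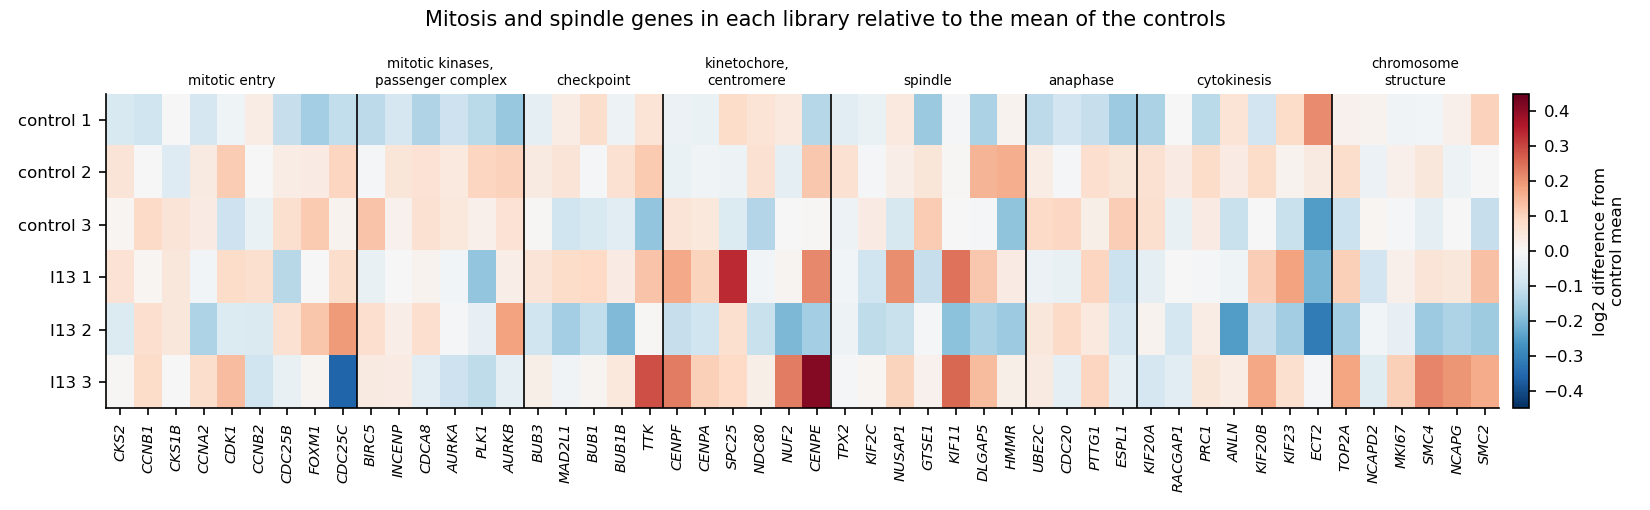
Log2 difference of each member (columns, by function) in each library (rows) from the mean of the 3 control libraries. Blue cells are lower and red cells higher, and I13 replicate 2 is the lowest of the 6 libraries for 23 of the 50 members.

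This difference varied with the base composition of the transcript. Across the 50 members the difference of this library pair had a Spearman correlation of 0.844 and a Pearson correlation of 0.836 with the GC content of the longest coding transcript. The points share the same 6 libraries, and genes are not independent replicates. The same correlations were 0.741 and 0.697 over 9677 protein-coding genes of at least 1 FPKM, so the relation was not limited to mitosis. With exon length the Spearman correlation was -0.397 for the members. The 25 members of lower GC content (34.2% to 43.2%) had a median difference of -0.16, with 24 below 0. In the 25 of higher GC content (43.2% to 59.6%) the median was 0.057, with 8 below 0. All 6 kinetochore genes and all 5 checkpoint genes were below 0, while the 6 mitotic kinases and passenger proteins were all above 0. The I13 log2 fold change had a Spearman correlation of -0.314 with GC content over the members and of -0.0304 over the 9677 genes.

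**Figure D4:**
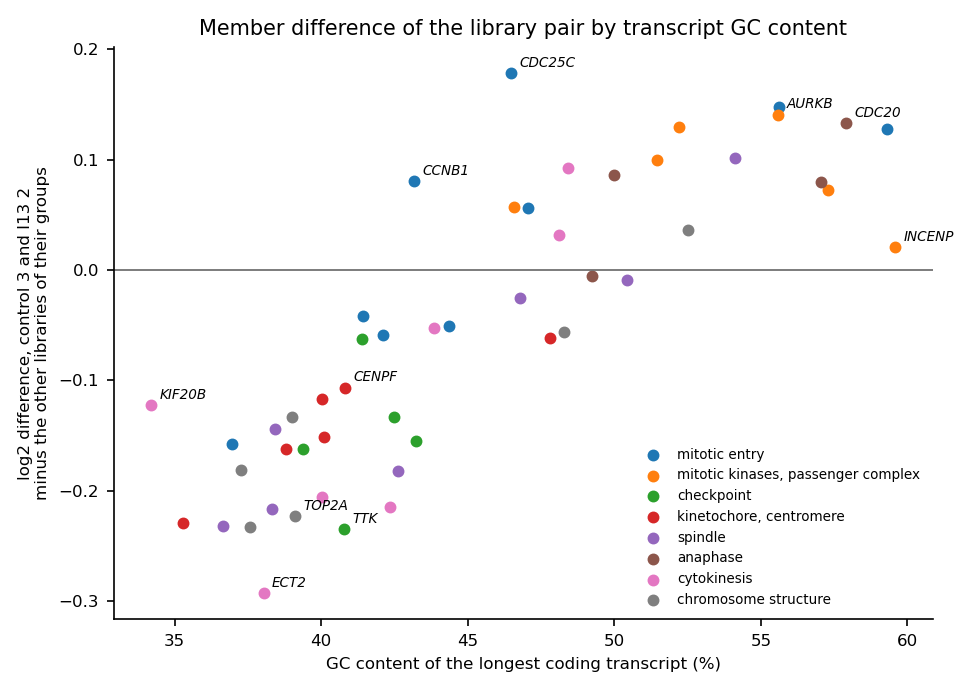
GC content of the longest coding transcript (x axis, %) against the log2 difference of control replicate 3 and I13 replicate 2 from the other libraries of their groups (y axis) for the 50 members, coloured by function. Of the 25 members of lower GC content 24 lie below 0, against 8 of the 25 of higher GC content, with a Spearman correlation of 0.844.

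In the 4 other libraries the median log2 fold change of all members was 0.043, beside 0.018 over all genes tested there. Within the pair the median of the members was -0.053. The medians of the spindle checkpoint genes (0.020 and -0.064), the spindle genes (0.015 and -0.12) and the chromosome structure genes (0.096 and -0.058) also had opposite signs in the 4 libraries and in the pair, as had those of mitotic entry (0.051 and -0.0048), the mitotic kinases (0.021 and -0.023) and anaphase (0.029 and -0.020). Cytokinesis was below 0 in both (-0.023 and -0.059). Leaving these libraries out changed which members passed the unadjusted threshold, and none passed after adjustment. In the 4 other libraries, KIF11 had a log2 fold change of 0.25 (unadjusted p = 0.00202, adjusted p = 0.484), CENPF of 0.23 (unadjusted p = 0.00604, adjusted p = 0.484) and CENPA, the histone variant of the centromere, of 0.13 (unadjusted p = 0.0341, adjusted p = 0.589) by limma. These 3 members stood beside 8.04% of all genes at an unadjusted p under 0.05 in the same fit. Within the pair, I13 replicate 2 against control replicate 3 gave -0.19 for KIF11, -0.16 for CENPF and -0.13 for CENPA, the opposite direction. Without I13 replicate 2 alone, KIF11 (0.25), CENPF (0.20) and CENPE (0.31) passed the unadjusted threshold, beside 6.56% of all genes, with adjusted p of 0.427, 0.681 and 0.746 by limma. Without control replicate 3 alone ECT2 passed it (-0.30, unadjusted p = 0.0415, adjusted p = 0.770), beside 6.27% of all genes. With this pair as a term, voom gave 2 members at an unadjusted p under 0.05, CENPE at 0.17 (adjusted p = 0.477) and ECT2 at -0.19 (adjusted p = 0.375), beside 10.3% of the genes it tested. When the median deviation of genes of like GC content was removed from each library, the median standard error of the members went from 0.0756 to 0.0564. After this GC centring 0 members passed, beside 7.41% of all genes, with limits of all intervals between -0.41 and 0.40, and SPC25 had an unadjusted p of 0.0546 (adjusted p = 0.688).

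The median log2 fold change was 0.014 for the 35 members with a CHR match and 0.056 for the 7 matched members without one. No test was made between these promoter groups.

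Other genes of the same pathways were taken from 6 lists with 121 tested genes. The groups did not overlap for 7 of these 121 genes, beside 9.52% of all genes tested. Of the 121, 80 were above and 41 below 0, and the median log2 fold change was 0.024. By limma 4 had an unadjusted p under 0.05, all higher in I13 cells, with an adjusted p of at least 0.890. UBE2S, which extends ubiquitin chains on targets of the anaphase-promoting complex, was at 94.1, 95.7 and 99.9 FPKM in control and at 102, 112 and 108 FPKM in I13 libraries. Every I13 library was above every control, and the log2 fold change was 0.16 (SE 0.0507, unadjusted p = 0.0180 and adjusted p = 0.890 by limma). CENPT, which links the inner kinetochore to the NDC80 complex, was at 2.72, 3.04 and 3.49 FPKM in control and at 3.74, 4.04 and 3.52 FPKM in I13 libraries. The lowest I13 library was just above the highest control, with a log2 fold change of 0.29 (unadjusted p = 0.0416, adjusted p = 0.947). LIN52, a subunit shared by DREAM and MMB, was at 3.70, 3.80 and 3.68 FPKM in control and at 4.66, 4.08 and 4.18 FPKM in I13 libraries, a log2 fold change of 0.20 (unadjusted p = 0.0470, adjusted p = 0.947) with no overlap. CDC25A, a phosphatase that acts on CDK2 and CDK1, was at 17.9, 17.1 and 18.7 FPKM in control and at 18.6, 20.9 and 20.5 FPKM in I13 libraries, a log2 fold change of 0.16 (unadjusted p = 0.0432, adjusted p = 0.947) with an overlap of I13 replicate 1. The 4 passing genes of 121 stand beside the 5.14% of all genes that passed the same threshold. By voom 4 of 120 genes passed it, beside 5.35% of the genes tested. There WEE1 passed (unadjusted p = 0.0244 by voom) and LIN52 did not (unadjusted p = 0.0836 by voom).

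Median log2 fold changes of the single lists, between which no test was made, were 0.011 for 15 other genes of mitotic entry, 0.072 for 11 genes of the DREAM and MMB complexes, 0.015 for 18 genes of the anaphase-promoting complex and 0.069 for 36 other kinetochore and centromere genes. They were -0.013 for 14 cohesin and condensin genes and 0.020 for 27 other spindle and cytokinesis genes. In the DREAM and MMB list LIN37 was at only 0.0824 to 0.139 FPKM. Voom tested 10 of the 11 genes of that list, without LIN37, and gave a median of 0.061. Of 35 DNA replication genes, which act in the preceding S phase, 28 were above 0 with a median of 0.075, where 51.8% of all genes were above 0. By voom 0 of these genes had an unadjusted p under 0.05, beside 5.35% of the genes it tested. By limma there were 2, both higher, beside 5.14% of all genes. The smallest p was that of PCNA, the sliding clamp of DNA polymerases, at 143 ± 5.30 FPKM in control and 156 ± 6.61 FPKM in I13 cells (SD, n = 3 each), with a log2 fold change of 0.12 (unadjusted p = 0.0448, adjusted p = 0.947). The other was MCM3, a subunit of the replicative helicase, chosen after its values were seen, at 83.4 ± 3.55 and 90.5 ± 3.06 FPKM (SD, n = 3 each), with a log2 fold change of 0.12 (unadjusted p = 0.0487, adjusted p = 0.947).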

How the data were processed

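Messenger RNA of Kasumi-1 cells was sequenced after library preparation with a stranded kit, per the labels. The authors deposited FPKM values per gene for the 6 libraries. Trimmomatic, HISAT2, Cufflinks, HTSeq and hg38 are named in the submitters' processing notes, with no role or version, and the annotation is not given in the sources used here. FPKM is relative to the library, so a change shared by all genes cannot be seen.

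Samples were grouped by their labels. Fragments were recovered with exon lengths of GENCODE release 29, which names 32244 of the identifiers, and 25771 of 27002 genes above 0 (95.4%) were whole in all libraries within 0.01 fragments. Depth limits the precision of each value, and more fragments give less error. Differential expression was tested on log2(FPKM + 0.1) with limma 3.58.1 under R 4.3.3, two-sided, with a variance trend, no block and Benjamini-Hochberg adjustment over 18726 genes whose mean reached 0.1 FPKM. Voom was run on genes whose mean reached 10 fragments. Calls needed an adjusted p under 0.05 and a log2 fold change of at least 0.58. Promoters, ratios and figures were computed in Python 3.11.15. The scripts were tested on simulated data.

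Values in every library are given, for each of the 8 functional groups, for the members with the smallest p and with the highest and lowest level. They are also given for genes of the 6 other mitosis lists at an unadjusted p under 0.05, and for KIF11. KIF11 was chosen after its values were seen, as were CDK1, FOXM1, MKI67 and MCM3, which are given as means with SD. Of the DNA replication list the smallest p is named, with means. The members, lists and tests were chosen with earlier results of these data known. Other settings were a pseudocount of 0.01 or 1, no filter on low values, a minimum of 1 FPKM, median scaling, quantile normalization, a replicate block, other variance models, voom, libraries left out and a term for 1 pair of libraries. GC centring and voom with that term were chosen after seeing the data. Replicates of a group differed by more than sampling noise. Reads of 9 members can be shared with a gene on the same strand, and 8 members have 14 copies in the table, all at or under 7.13 FPKM.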

Additional observations from a re-analysis of the deposited data

How the results depend on the processing

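No member passed the adjusted threshold under any of the 21 settings. The median log2 fold change of the members lay between -0.025 and 0.043 and was above 0 in 19 of the 21, with a range of -0.025 to 0.032 when 1 library was left out, and every shift was smaller than the spread of 0.0523 between replicates. Genes called over all genes tested went from 0 to 9 by limma without a trend, to 4 by voom and to 15 by voom once control replicate 3 and I13 replicate 2 had a term of their own, and ranged from 0 to 2 when 1 library was left out (2 without I13 replicate 1). Members at an unadjusted p under 0.05 went from 0 to 2 by voom with that term and to 3 in the 4 libraries without control replicate 3 and I13 replicate 2, and ranged from 0 to 3 when 1 library was left out (1 without control replicate 3, 3 without I13 replicate 2). The cause was not tested. Whether the replicate numbers pair the samples could not be decided. Same-numbered libraries had correlations of 0.083, -0.070 and -0.017. Libraries of unlike number reached similar values, 0.085 for control replicate 2 with I13 replicate 3 and 0.072 for control replicate 3 with I13 replicate 2. A replicate block gave 0 called genes, 862 in place of 963 genes at an unadjusted p under 0.05, 0 members and a median of 0.018. Of 440 values of the 22 members set by the rule, 412 kept their direction and side of the threshold, 6 kept their direction and passed the unadjusted threshold only under the alternative, and 22, of 11 members, had the opposite sign with 0 of them past the threshold. Of these 22, 18 arose when 1 library was left out, with ranges of -0.14 to 0.14 for CDC25C, -0.031 to 0.035 for CKS2, -0.029 to 0.11 for AURKB, -0.032 to 0.091 for BIRC5, -0.032 to 0.041 for BUB3, -0.038 to 0.020 for TPX2, -0.12 to 0.049 for HMMR, -0.036 to 0.065 for UBE2C, -0.11 to 0.0016 for KIF20A, -0.025 to 0.14 for TOP2A and -0.013 to 0.15 for SMC2. CKS2 was at -0.0015 with median scaling, -0.011 with quantile normalization and -0.0050 with GC centring, and BUB3 at 0.043 in the 4 libraries. With 3 libraries a group, differences inside the stated intervals remain possible.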
